A study of Mus musculus with 12 samples.

Results

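The genes described here carry proteins between the endoplasmic reticulum (ER) and the Golgi apparatus, and they were measured in pancreatic islets of mice. They are 42 of the 38561 genes in the deposited count table, chosen by name from the known components of the pathway and matched by Ensembl identifier, and all 42 were found. The choice was made with earlier results of these data known. By role they are 12 genes of the COPII coat, 11 cargo receptors, 3 KDEL receptors, 7 coatomer subunits of the COPI coat, 2 Arf GTPases, 2 golgins and 5 SNAREs. A further list of 74 related genes of the same pathway (coat regulators, tethers, SNAREs, other cargo receptors and transcription factors of the ER stress response) was kept apart.

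Newly made secretory proteins leave the ER in vesicles formed by the COPII coat, whose GTPase Sar1 recruits the inner layer of Sec23 and Sec24 and the outer cage of Sec13 and Sec31. Cargo receptors collect soluble proteins into these vesicles, and tethers and SNAREs fuse the vesicles with their target. The COPI coat, recruited by Arf GTPases, carries membrane and escaped ER proteins back, with KDEL receptors binding the chaperones that have to be returned. In beta cells, proinsulin is the main cargo that passes along this route.

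RNA of picked islets was sequenced in 4 groups of 3 mice, with 1 library per mouse, which cross the NOD or B10 strain background with the presence or absence of a transgene, insHEL. NOD_insHEL mice (Rag-/-.insHEL) and NOD mice (Rag-/-) have the NOD/LtJ background, the haplotype written BR-H2k and the Rag allele 129S7(B6)-Ragtm1Mom, with the transgene B6-Tg(ILK3mHEL)3Ccg added in NOD_insHEL. B10_insHEL mice (Rag-/-.insHEL) and B10 mice (Rag-/-) have the C57BL/10SnSg background with the same haplotype and Rag allele, and B10_insHEL mice carry the same transgene. All 12 mice were males of 11 weeks, Rag-deficient, of MHC haplotype k and normoglycemic. The transgene places hen egg lysozyme (mHEL in the name above) under an insulin promoter, and the count table has no row for it, so the transgene was not measured. Pancreata of every group were digested with α-amanitin and actinomycin D, both inhibitors of transcription, in the solutions. Between 20 and 137 islets were picked per library.

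Library totals ran from 2212062 counts (NOD_insHEL replicate 3) to 21138456 counts (B10 replicate 2). The 42 genes took 0.824% to 1.245% of a library, with 22 to 16381 counts per gene and library, and every gene passed the low-count filter. Levels are CPM, counts relative to the library total, scaled by TMM, a correction for composition. The islet label was checked with marker genes: 10 beta cell genes summed to between 183776 and 294117 CPM. Cd3e of T cells had 0 counts in all 12 libraries, but Rag-deficient mice lack mature T cells, so this is no check. The 8 leukocyte genes on the list summed to 59.7 to 126 CPM, with Lyz2, Csf1r and Ptprc among those detected. Genes of acinar cells, the exocrine tissue around islets, differed between groups, and their values stand beside the results below. Most of them encode digestive enzymes. Tests are edgeR's quasi-likelihood tests over 15352 genes with an adjusted p threshold of 0.05, and their p-values measure the spread between mice.

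Per kilobase of exon, Surf4, a cargo receptor, had the highest mean level over the 12 libraries (166 CPM per kb). The KDEL receptor Kdelr2 came next with 125 CPM per kb, followed by the cargo receptor Tmed3 with 121 CPM per kb. The lowest was Sec24a, at 6.31 CPM per kb. Paralogs were unequal: Kdelr3 stood at 13.8 CPM per kb against 90.3 for Kdelr1, and Sec23b at 39.2 CPM per kb against 12.1 for Sec23a.

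The transgene comparisons ask what islet gene expression looks like when the islets carry the lysozyme transgene. In B10_insHEL islets against B10 islets, 24 of the 42 genes rose (57.1%), against 4.09% of all genes tested, while 6.85% of all genes passed in either direction. None of the 42 fell by edgeR's test or by DESeq2 (2.76% of all genes fell); at an unadjusted p under 0.05 there was 1, Sec24b, which also passed as lower in the fit without a scaling factor. In NOD_insHEL islets against NOD islets, 16 of the 42 rose (38.1%), against 3.88% of all genes (7.06% in either direction), and 0 fell by edgeR, by DESeq2 or at an unadjusted p under 0.05 (3.18% of all genes fell). The median log2 fold change of the 42 genes was 0.45 in B10 (1.37-fold) and 0.33 in NOD (1.26-fold), with a median over all genes tested near 0.00 in both. The libraries of the 2 sides did not overlap for 30 of the 42 genes in B10 (71.4%, against 26.7% of all genes) and for 29 in NOD (69.0%, against 26.6%). In each strain, 1 of these genes was lower with the transgene, Sec24b. These are bulk libraries, so fewer cells of a type and less RNA per cell cannot be told apart.

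**Figure D1:**
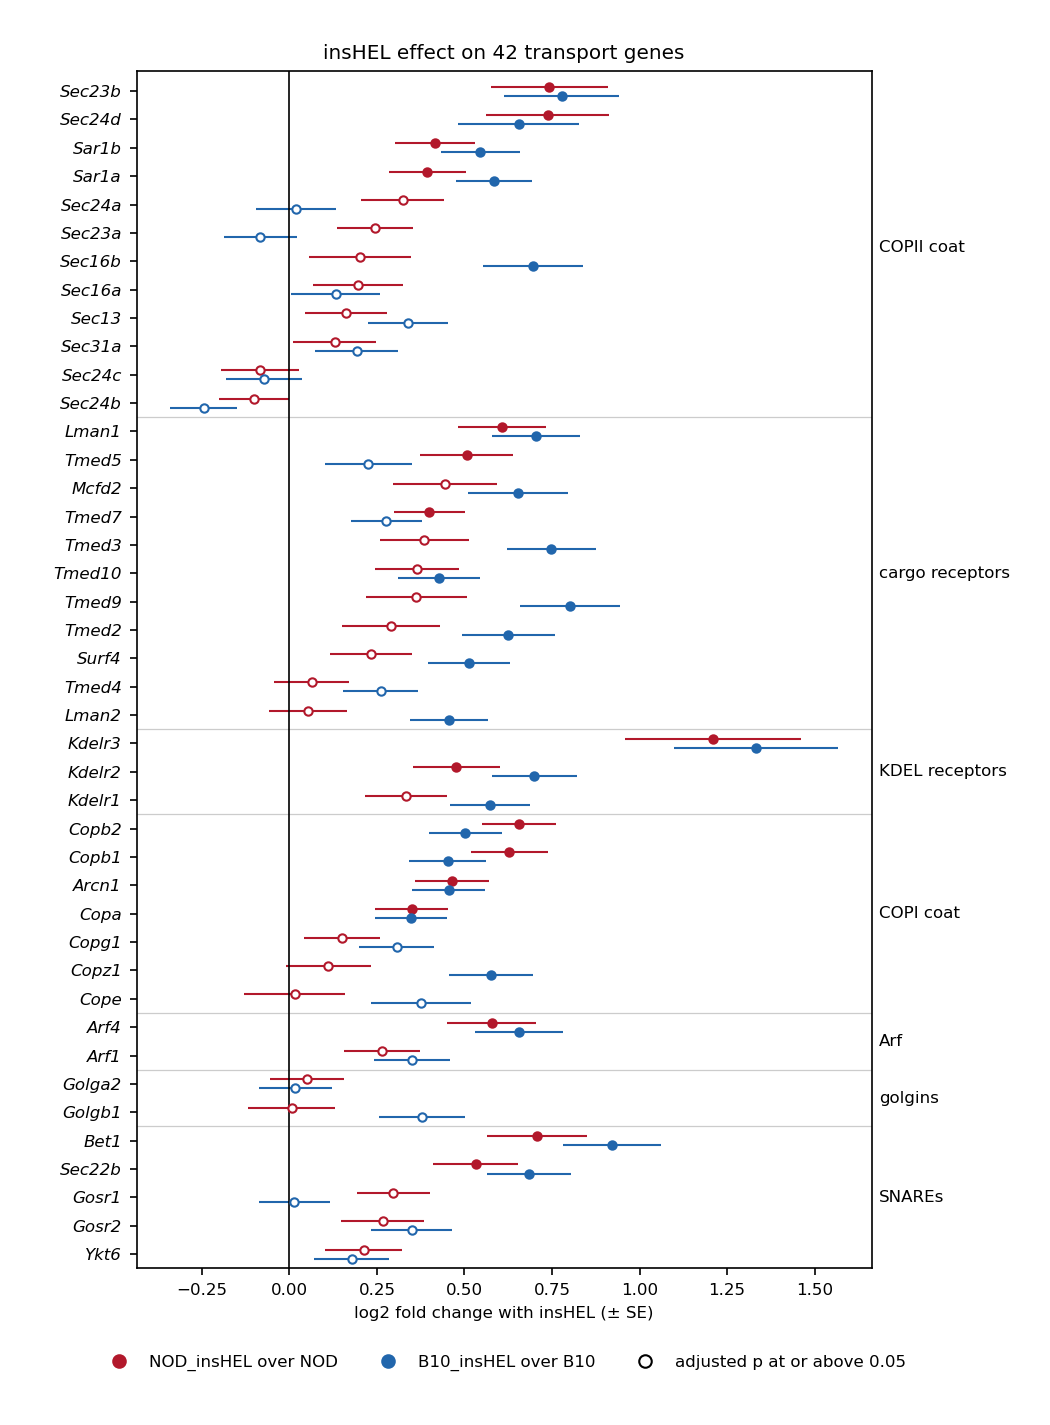
Log2 fold change (x axis, ± SE) of each of the 42 genes, grouped by role, for NOD_insHEL over NOD and B10_insHEL over B10; filled points passed an adjusted p of 0.05 (3 libraries a group). Nearly all points lie right of 0, with 24 filled points in B10, 16 in NOD and Kdelr3 farthest to the right in both.

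Summed over the 42 genes, the level was 11069, 10405 and 9541 CPM in NOD_insHEL islets, against 8083, 8281 and 8240 CPM in NOD islets. The sum was 10933, 11460 and 13476 CPM in B10_insHEL islets, against 8106, 9400 and 8570 CPM in B10 islets. The transgenic libraries lay above those without the transgene in both strains. B10_insHEL replicate 3 had the highest value of all 12 libraries for 29 of the 42 genes. Of the 42 genes, 37, 34 and 30 were above every NOD library in NOD_insHEL replicates 1, 2 and 3. In B10_insHEL replicates 1, 2 and 3, 32, 34 and 35 of the 42 were above every B10 library. The share of all genes was not computed for these counts by library, so they only describe the libraries.

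Acinar genes were lower with the transgene, with a median log2 fold change over the 25 tested of −1.45 in NOD and −2.15 in B10. The 29 acinar genes on the list summed to 194 to 2662 CPM in B10_insHEL islets, against 3775 to 4742 CPM in B10 islets. They summed to 157 to 209 CPM in NOD_insHEL islets, against 229 to 385 CPM in NOD islets. These sums include Bhlha15, a transcription factor gene, at 118 of 194 CPM in B10_insHEL replicate 1. Its mean was higher with the transgene (133 against 91.7 CPM in B10, 81.5 against 66.2 CPM in NOD). The sums therefore understate the fall of the other acinar genes. Of the 25 tested, Bhlha15 among them, 1 was positive in B10 and 2 in NOD. Of these 25 genes 1 passed as lower in each strain, and 15 in NOD_insHEL and 23 in B10_insHEL were lower without overlap. An acinar score, the mean log2 CPM of these 25 genes, was 1.04, 5.56 and 0.52 in B10_insHEL replicates 1 to 3, and 6.25, 6.04 and 6.42 in B10 replicates 1 to 3. B10_insHEL replicate 2, with a score of 5.56 and an acinar sum of 2662 CPM, was below every B10 library in both. Its summed level of the 42 genes was 11460 CPM, and the highest B10 library had 9400 CPM. This is 1 library, and the part of acinar cells in its level was not tested. With this score as a covariate in edgeR, the median log2 fold change of the 42 genes in B10 was 0.36 and 38 were positive. None passed (0 of 42, lowest adjusted p = 0.0826, 21 higher at an unadjusted p under 0.05), while 1.55% of all genes did. In NOD 13 passed with the covariate, while 7.43% of all genes did. Without B10_insHEL replicate 2, 26 rose in B10, and 10.1% of all genes passed in either direction.

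**Figure D2:**
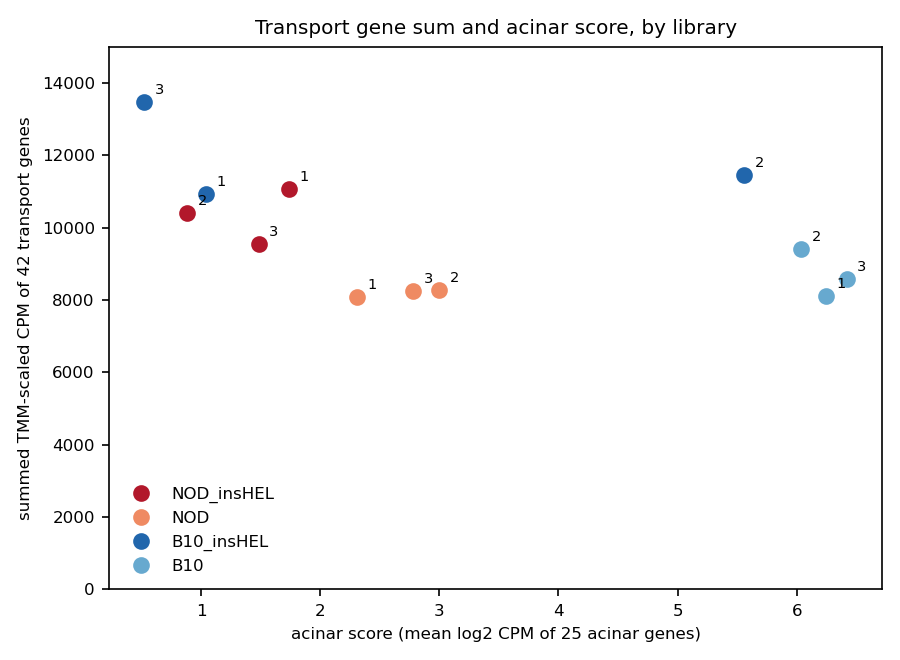
Summed level of the 42 genes (y axis, TMM-scaled CPM) against the acinar score (x axis, mean log2 CPM of 25 acinar genes), 1 point per library in 4 groups. The transgenic libraries lie above those without the transgene of the same strain. B10_insHEL replicate 2 lies left of the B10 libraries along x (5.56 against 6.04 to 6.42) and above them along y.

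Other markers moved too. Summed beta cell genes were 205209 to 273661 CPM in B10_insHEL islets, against 183776 to 204970 CPM in B10 islets. Most of that sum is Ins1, Ins2 and Iapp, and over the 10 genes the median log2 fold change was −0.23, with 4 positive and 6 negative. Ins1 and Iapp rose, while Slc2a2 and Nkx6-1 fell by 0.83 and 0.44 on the log2 scale. The sum was 262028 to 294117 CPM in NOD_insHEL islets, against 254434 to 261884 CPM in NOD islets. Of 8 endothelial genes 5 fell in NOD_insHEL islets, with a sum of 936 to 1117 CPM, against 1225 to 1730 CPM in NOD islets. In NOD, 2 of 6 duct genes fell, and of 6 leukocyte genes tested 1 rose and 1 fell. In B10, 1 of 7 alpha cell genes and 1 of 8 endothelial genes rose. No duct or leukocyte gene passed in B10, and no alpha cell gene in NOD. Delta cell and stellate genes passed in neither strain. Over all genes tested, 7.06% passed in NOD and 6.85% in B10. The part of these cell types in the transgene results was not tested further. The 3 B10 libraries carry sample numbers above 100 in their descriptions and the other 9 carry 1 to 29. If these mark a batch, batch and group cannot be told apart wherever B10 enters, whereas NOD_insHEL and NOD lie within 1 to 29.

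The counts of genes that rose depended on single libraries. In NOD the count was 2 without NOD_insHEL replicate 1 (where 0.682% of all genes passed) and 3 without replicate 2 (1.09%). Copb1 and Copb2 passed in both, and Lman1 was the third gene without replicate 2, at an adjusted p just under the threshold. The count was 9, 7 and 6 without NOD replicates 1, 2 and 3 (5.45%, 2.34% and 2.53% of all genes passed). It was 18 without the shallow NOD_insHEL replicate 3 (8.63%). In B10 the count was 14 without B10_insHEL replicate 3 (3.01% of all genes passed) and 15 without B10 replicate 1 (2.9%). All genes that passed in these smaller fits rose. The calls of Kdelr3, Bet1, Sec23b and Sec24d in NOD ended without NOD_insHEL replicate 1 and without replicate 2. Without a NOD library, that of Kdelr3 also ended without replicate 2, that of Sec23b without replicate 3 and that of Sec24d without replicate 1 and without replicate 3. In B10 the calls of Kdelr3, Bet1, Tmed9, Tmed3 and Copb2 ended under the acinar covariate alone of the 20 alternatives in processing, that of Sec23b under 4 and that of Sec24d under 7.

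The promoters of the 42 genes were searched for 3 sequence elements of the ER stress response. They were the UPRE (TGACGTGG), and the longer elements named ERSE and ERSE-II, each searched on both strands with its full letters. RefSeq promoter windows (GRCm38.p6, 250 bases before to 50 after a start) were at hand for 36 of the 42 genes, as 41 windows. The UPRE letters were in windows of 7 of the 36 genes (19.4%): Arf1, Copb1, Copb2, Kdelr3, Sec16b, Sec23a and Sec24d. By window that is 8 of 41 (19.5%), against 222 of 32851 windows over all genes (0.676%). The Arf1 windows with the letters overlap and share the same match, so the 8 windows are not 8 separate places. The ERSE and ERSE-II letters were in 0 of the 41 windows, against 39 (0.119%) and 12 (0.0365%) of all windows. The UPRE letters share their first bases with the cyclic AMP response element, whose full letters do not match them, and their reverse complement begins with CCACG, which also ends the ERSE. A match of letters is a description and not a measured site.

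Copb1, Copb2, Kdelr3 and Sec24d rose with the transgene in both strains and have the UPRE letters, shown in capitals in their promoters, 5′ to 3′ along the gene. The windows are chr7:114254631-114254930 (minus strand), chr9:98563481-98563780 (plus strand), chr15:79516158-79516457 (plus strand) and chr3:123267246-123267545 (plus strand).
Copb1: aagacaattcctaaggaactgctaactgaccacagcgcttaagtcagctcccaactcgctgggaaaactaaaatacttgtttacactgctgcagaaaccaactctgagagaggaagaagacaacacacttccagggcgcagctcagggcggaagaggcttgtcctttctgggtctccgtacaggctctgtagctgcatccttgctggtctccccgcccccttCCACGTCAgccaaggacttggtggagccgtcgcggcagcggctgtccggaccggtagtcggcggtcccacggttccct
Copb2: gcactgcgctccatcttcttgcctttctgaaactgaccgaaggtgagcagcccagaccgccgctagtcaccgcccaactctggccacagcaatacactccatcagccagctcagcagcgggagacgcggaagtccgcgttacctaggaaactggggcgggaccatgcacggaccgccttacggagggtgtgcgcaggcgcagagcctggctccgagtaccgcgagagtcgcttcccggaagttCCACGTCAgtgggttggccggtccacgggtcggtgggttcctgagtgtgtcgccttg
Kdelr3: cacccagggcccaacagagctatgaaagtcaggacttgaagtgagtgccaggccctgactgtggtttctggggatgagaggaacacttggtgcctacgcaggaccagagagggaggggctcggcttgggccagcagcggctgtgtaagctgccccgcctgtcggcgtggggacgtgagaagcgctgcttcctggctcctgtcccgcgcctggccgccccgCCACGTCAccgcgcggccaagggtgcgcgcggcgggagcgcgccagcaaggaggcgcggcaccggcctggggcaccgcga
Sec24d: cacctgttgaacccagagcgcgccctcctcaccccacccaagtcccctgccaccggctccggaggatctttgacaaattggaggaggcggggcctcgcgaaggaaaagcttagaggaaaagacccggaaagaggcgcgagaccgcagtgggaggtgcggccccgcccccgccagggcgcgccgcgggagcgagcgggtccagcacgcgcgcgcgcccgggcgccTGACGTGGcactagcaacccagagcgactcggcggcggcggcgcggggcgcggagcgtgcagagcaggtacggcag
The letters begin 28 bases before the start in Copb1, 7 in Copb2, 30 in Kdelr3 and 26 in Sec24d. They read TGACGTGG along the gene in Sec24d and CCACGTCA in the other 3. Of the other genes with the letters, Sec16b rose in B10, while Arf1 and Sec23a passed in neither strain.

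KDEL receptors recognise a short tail on ER chaperones in the Golgi and return them. All 3 rose with the transgene in B10, and Kdelr2 and Kdelr3 also rose in NOD. Kdelr3 had 31.3, 30.1 and 10.3 CPM in NOD_insHEL islets, against 11.0, 9.74 and 13.1 CPM in NOD islets. It had 27.3, 28.7 and 36.1 CPM in B10_insHEL islets, against 11.5, 12.7 and 12.3 CPM in B10 islets. The B10 groups did not overlap, while NOD_insHEL replicate 3, with 22 counts of Kdelr3, lay within the NOD range. The log2 fold change was 1.21 ± 0.25 (SE) in NOD (adjusted p = 0.011) and 1.33 ± 0.23 (SE) in B10 (adjusted p = 0.00306). Kdelr2 changed by 0.48 on the log2 scale in NOD and 0.70 in B10. Kdelr1 changed by 0.57 in B10, and its difference of 0.33 in NOD did not pass (adjusted p = 0.0853).

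**Figure D3:**
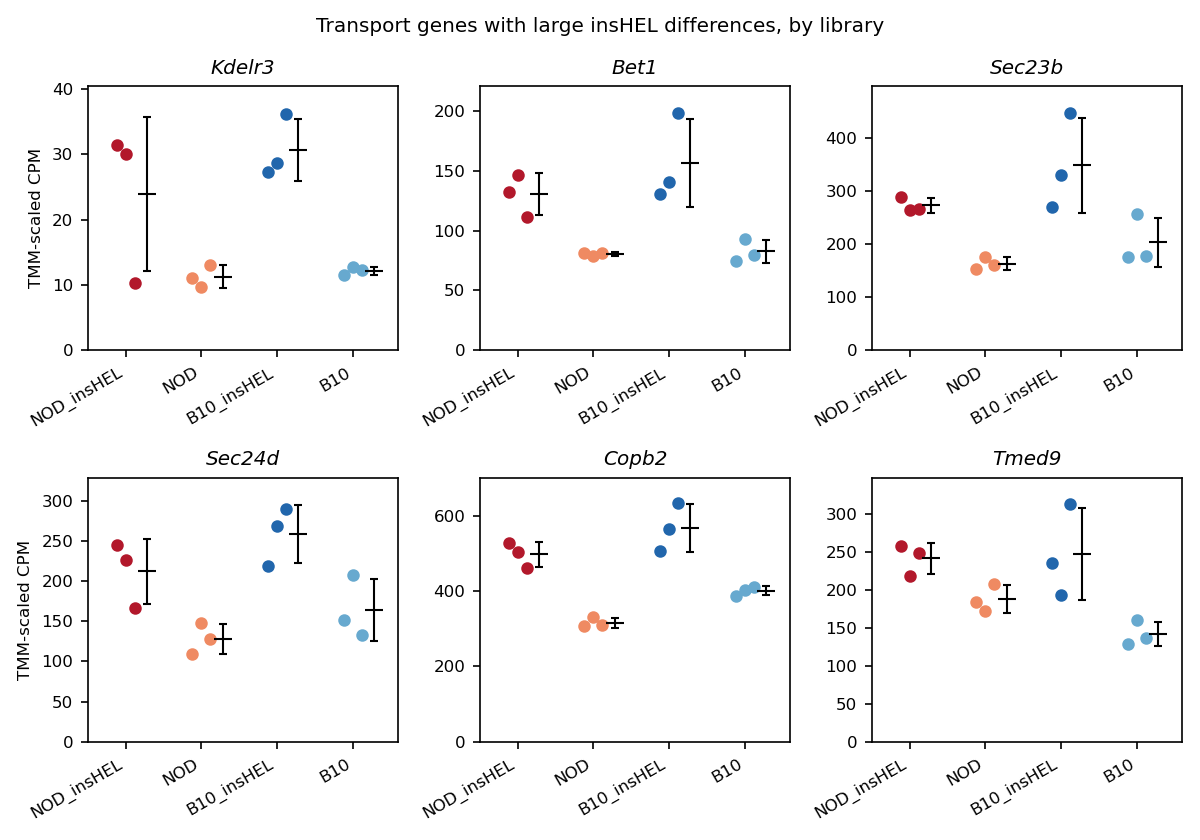
TMM-scaled CPM (y axis) of 6 genes in each library of the 4 groups (x axis), with mean ± SD over 3 libraries. For all 6 the B10_insHEL libraries lie above the B10 libraries, and Kdelr3 shows 1 low NOD_insHEL library, within the NOD range.

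In the COPII coat, 5 of 12 genes rose in B10 and 4 in NOD, and paralogs behaved unequally. Sec23b, an inner coat protein that stimulates GTP hydrolysis by Sar1, had 288, 264 and 267 CPM in NOD_insHEL islets, against 153, 176 and 160.1 CPM in NOD islets. It had 270.0, 329.5 and 446 CPM in B10_insHEL islets, against 176, 257 and 177 CPM in B10 islets. Neither pair of groups overlapped, though B10 replicate 2 came close to the lowest B10_insHEL library. The log2 fold change was 0.74 ± 0.17 (SE) in NOD (adjusted p = 0.0159) and 0.78 ± 0.16 (SE) in B10 (adjusted p = 0.00908). Its paralog Sec23a averaged 61.6 ± 2.17 CPM in NOD_insHEL islets and 52.0 ± 5.11 CPM in NOD islets (SD, n = 3 each). It averaged 58.1 ± 5.18 CPM in B10_insHEL islets and 61.5 ± 0.703 CPM in B10 islets, and neither difference passed (adjusted p = 0.179 in NOD and 0.703 in B10).

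Sec24 proteins pick the cargo of COPII vesicles. Of the 4 genes Sec24d alone passed in either transgene comparison, with 244, 226 and 167 CPM in NOD_insHEL islets, against 109.5, 148 and 128 CPM in NOD islets. It had 218, 268 and 289.8 CPM in B10_insHEL islets, against 152, 208 and 133 CPM in B10 islets. The groups did not overlap, and the log2 fold change was 0.74 ± 0.18 (SE) in NOD (adjusted p = 0.0211) and 0.65 ± 0.17 (SE) in B10 (adjusted p = 0.032). Sec24a differed by 0.32 on the log2 scale in NOD and 0.02 in B10, and the B10 value changed sign under 5 of the 20 alternatives in processing. Sec24c differed by −0.08 in NOD and −0.07 in B10. Sec24b was the 1 gene whose transgenic libraries lay below the others without overlap, at 57.5, 55.9 and 57.8 CPM in NOD_insHEL islets, against 61.5, 63.5 and 58.3 CPM in NOD islets. It had 56.7, 59.2 and 61.0 CPM in B10_insHEL islets, against 67.6, 68.7 and 73.5 CPM in B10 islets. Its log2 differences of −0.10 in NOD and −0.25 in B10 did not pass (adjusted p = 0.588 and 0.128). The difference between paralogs was not tested.

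The GTPase genes Sar1a and Sar1b rose in both strains, by 0.39 and 0.41 on the log2 scale in NOD and by 0.58 and 0.55 in B10. Sec16b, a scaffold of ER exit sites, rose in B10 by 0.70, and its value in NOD was 0.20 (adjusted p = 0.435). Its paralog Sec16a and the cage genes Sec13 and Sec31a passed in neither strain, with log2 values of 0.13 to 0.20 in NOD and 0.13 to 0.34 in B10.

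Of the 11 cargo receptors 8 rose in B10 and 3 in NOD. Tmed proteins are membrane receptors that cycle between ER and Golgi. Tmed9 had 258, 219 and 249 CPM in NOD_insHEL islets, against 184, 172 and 208 CPM in NOD islets. It had 236, 193 and 313 CPM in B10_insHEL islets, against 129, 160.0 and 136 CPM in B10 islets. Neither pair overlapped, and the log2 fold change passed in B10 (0.80 ± 0.14 (SE), adjusted p = 0.00237) but not in NOD (0.36 ± 0.14 (SE), adjusted p = 0.131). Tmed3 had 450.3, 383 and 335 CPM in NOD_insHEL islets, against 303, 257 and 338 CPM in NOD islets. It had 434, 374 and 485 CPM in B10_insHEL islets, against 264, 254 and 251 CPM in B10 islets. Its B10 groups did not overlap and its NOD groups did, with log2 fold changes of 0.38 ± 0.13 (SE) in NOD (adjusted p = 0.0694) and 0.75 ± 0.13 (SE) in B10 (adjusted p = 0.00152).

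Lman1, a lectin that exports glycoproteins, rose by 0.61 on the log2 scale in NOD and 0.70 in B10. Its soluble partner Mcfd2 rose by 0.65 in B10, and its value of 0.44 in NOD did not pass (adjusted p = 0.075). Surf4, Lman2, Tmed2 and Tmed10 also rose in B10, by 0.43 (Tmed10) to 0.63 (Tmed2). In NOD these 4 genes had values of 0.05 (Lman2) to 0.37 (Tmed10). Tmed5 and Tmed7 rose in NOD, by 0.51 and 0.40, and had 0.23 and 0.28 in B10. Tmed4 passed in neither strain. Exons of Tmed7 and Ticam2 overlap on the same strand by 838 bases, so reads there cannot be told apart.

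Of the 7 coatomer genes 5 rose in B10 and 4 in NOD. Copb2, which encodes the beta-prime subunit that binds cargo tails, had 527, 503 and 461 CPM in NOD_insHEL islets, against 306, 331 and 311 CPM in NOD islets. It had 506, 565 and 633 CPM in B10_insHEL islets, against 388, 403 and 411 CPM in B10 islets. Its groups did not overlap in either strain, and the log2 fold change was 0.66 ± 0.11 (SE) in NOD (adjusted p = 0.00238) and 0.50 ± 0.10 (SE) in B10 (adjusted p = 0.00564). Copb2 and Copb1, the beta subunit, passed in NOD under all 20 alternatives in processing, leaving out each library included. Copb1, the delta subunit gene Arcn1 and the alpha subunit gene Copa rose in both strains, by 0.35 (Copa) to 0.63 (Copb1) in NOD and 0.35 (Copa) to 0.45 (Arcn1) in B10. Copa was close to the threshold, with an adjusted p of 0.0463 in NOD and 0.0475 in B10, and its call ended under 13 and 17 of the 20 alternatives. Copz1, the zeta subunit, rose in B10 (0.58) and had 0.11 in NOD. Copg1 and Cope, the gamma and epsilon subunits, passed in neither.

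Among the Arf GTPases, Arf4 rose by 0.58 on the log2 scale in NOD and 0.65 in B10. Arf1, which recruits coatomer to the Golgi, had 0.27 in NOD and 0.35 in B10 and did not pass (adjusted p = 0.142 and 0.0537). Exons of Arf4 overlap those of Pde12 on the opposite strand by 527 bases, and the strand setting of the counting is not given in the sources used here.

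SNAREs pull vesicle and target membranes together. Bet1 had 132, 147 and 112 CPM in NOD_insHEL islets, against 81.1, 78.6 and 81.4 CPM in NOD islets. It had 131, 140.5 and 198 CPM in B10_insHEL islets, against 74.8, 93.1 and 79.5 CPM in B10 islets. The groups did not overlap in either strain, with log2 fold changes of 0.71 ± 0.14 (SE) in NOD (adjusted p = 0.00825) and 0.92 ± 0.14 (SE) in B10 (adjusted p = 0.000642). Sec22b, its partner in the same fusion complex, rose by 0.53 in NOD and 0.69 in B10. The other SNAREs, Gosr1, Gosr2 and Ykt6, passed in neither strain, with log2 values of 0.21 to 0.30 in NOD and 0.01 to 0.35 in B10. Golgb1 (giantin) and Golga2 (GM130), golgins that tether vesicles at the Golgi, did not pass either, with log2 values of 0.01 and 0.05 in NOD and 0.38 and 0.02 in B10.

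The transgene comparisons of the 2 strains share no library. They had 14 genes in common, 87.5% of those that rose in NOD and 58.3% of those that rose in B10. These were Arcn1, Arf4, Bet1, Copa, Copb1, Copb2, Kdelr2, Kdelr3, Lman1, Sar1a, Sar1b, Sec22b, Sec23b and Sec24d. The log2 fold change was positive in both strains for 39 of the 42 genes, and the 10 genes that passed in B10 alone were all positive in NOD. Across the 42 genes the NOD and B10 values had Pearson's r = 0.72 and Spearman's rho = 0.63, as a description over genes that share libraries. The difference between the strains was tested as an interaction. It passed for 0 of the 42 genes by edgeR (0.0586% of all genes passed, 0.0456% higher and 0.0130% lower) and by DESeq2, with 6 at an unadjusted p under 0.05. A difference between strains in the effect of the transgene was therefore not shown for any of the 42.

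Among the related genes, 17 of 73 tested rose with the transgene in B10 (23.3%, against 4.09% of all genes) and 14 in NOD (19.2%, against 3.88%). By edgeR or DESeq2, 0 fell in either strain (3 in B10 and 2 in NOD at an unadjusted p under 0.05). Of all genes, 2.76% fell in B10 and 3.18% in NOD by edgeR. Copz2, a second zeta subunit of coatomer, rose by 0.75 on the log2 scale in NOD and 0.84 in B10. Arfgap3, which ends the GTP state of Arf1, rose by 0.77 in B10, and Scfd1, a regulator of ER-Golgi SNAREs, by 0.73. Cog5, of the COG tether, and Ergic1, a cycling membrane protein, rose in NOD by 0.77 and 0.69.

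The strain comparisons ask how islets of the diabetes-prone NOD background differ from B10 islets. They use the same libraries as the transgene comparisons. Averaged over the transgene (6 NOD-background libraries against 6 of B10 background), 2 of the 42 genes rose and 15 fell. The 40.5% that passed compares with 33.3% of all genes tested, and the 35.7% that fell with 17.6%. The median log2 fold change was −0.14 for the 42 genes and 0.01 for all genes. Between NOD_insHEL and B10_insHEL 4 genes fell and 0 rose by edgeR (6.50% and 5.55% of all genes; 1 was higher at an unadjusted p under 0.05), and by DESeq2 5 fell and 0 rose. Between NOD and B10 4 rose and 7 fell, 26.2% against 28.4% of all genes (13.5% rose and 14.9% fell). The libraries of NOD_insHEL and B10_insHEL did not overlap for 10 of the 42 genes (23.8%, against 27.0% of all genes), and those of NOD and B10 for 22 (52.4%, against 47.5%).

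**Figure D4:**
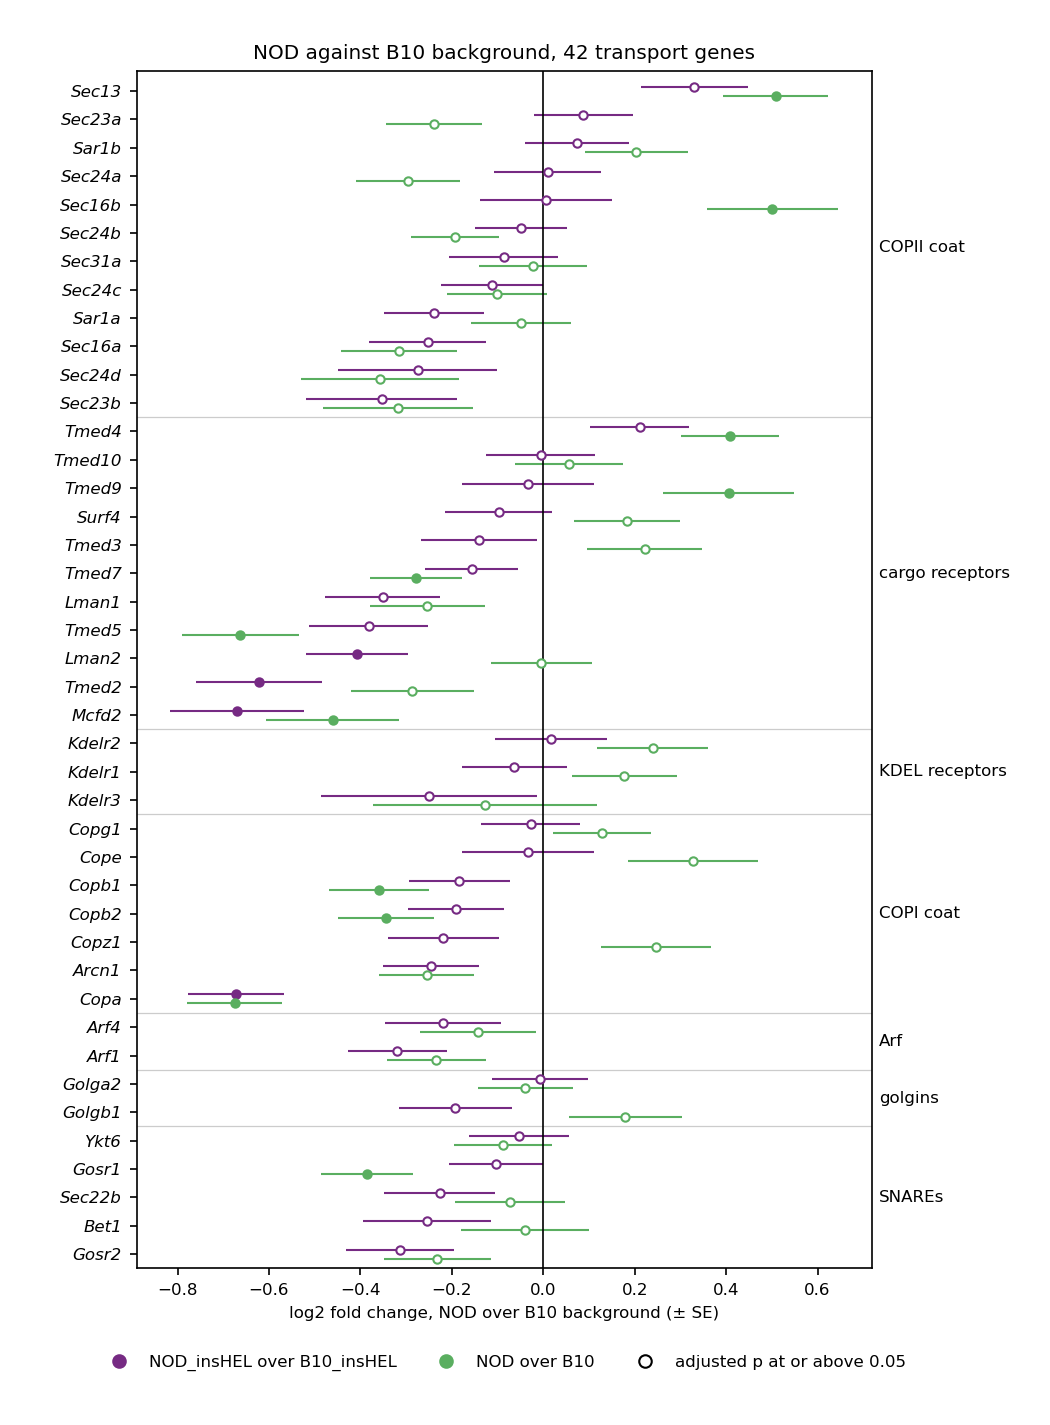
Log2 fold change (x axis, ± SE) of each of the 42 genes by role for NOD_insHEL over B10_insHEL and NOD over B10; filled points passed an adjusted p of 0.05 (3 libraries a group). Copa and Mcfd2 are filled and left of 0 in both comparisons, and Sec13 and Tmed4 lie right of 0 in both.

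Copa, the alpha coatomer subunit, mutated in a human immune disorder named after it, had the largest averaged strain difference of the 42. It had 604, 552 and 519.8 CPM in NOD_insHEL islets, against 807, 911 and 955 CPM in B10_insHEL islets. It had 435, 449 and 433 CPM in NOD islets, against 649.5, 738 and 714 CPM in B10 islets. It was the 1 gene of the 42 whose 6 NOD-background libraries all lay below the 6 of B10 background (11.3% of all genes had no overlap). The averaged log2 fold change was −0.67 ± 0.074 (SE) (adjusted p = 5.51e-07), with −0.67 between the transgenic groups and −0.67 between the others. Of the other coatomer genes, Copb1 and Copb2 fell by 0.27 and Arcn1 by 0.25 on the log2 scale. Copa exons overlap Ncstn on the opposite strand by 195 bases. The build named in the processing notes, GRCm38, is the C57BL/6J genome, and whether NOD alleles map less well was not tested.

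Of the 11 cargo receptors 1 rose and 6 fell (63.6%, against 33.3% of all genes in either direction). Mcfd2 had 117, 112 and 90.2 CPM in NOD_insHEL islets, against 143, 155 and 215 CPM in B10_insHEL islets. It had 74.7, 81.8 and 80.5 CPM in NOD islets, against 105, 127 and 93.7 CPM in B10 islets. Within each pair the groups did not overlap, and the averaged log2 fold change was −0.56 ± 0.10 (SE) (adjusted p = 0.000325). Its partner Lman1 had 775, 702 and 617 CPM in NOD_insHEL islets, against 767, 869.7 and 1037 CPM in B10_insHEL islets. It had 446, 476 and 454 CPM in NOD islets, against 472, 614 and 554 CPM in B10 islets. The groups overlapped within each pair, and the averaged log2 fold change was −0.30 ± 0.089 (SE) (adjusted p = 0.0123).

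The Tmed genes moved in opposite directions. Tmed5 had 47.5, 60.3 and 45.5 CPM in NOD_insHEL islets, against 56.8, 74.1 and 70.6 CPM in B10_insHEL islets. It had 32.1, 38.3 and 38.7 CPM in NOD islets, against 54.8, 58.4 and 59.3 CPM in B10 islets. The transgenic groups overlapped and the others did not, with an averaged log2 fold change of −0.52 ± 0.091 (SE) (adjusted p = 0.000165). Tmed2 had 56.4, 48.8 and 52.1 CPM in NOD_insHEL islets, against 73.3, 68.3 and 100.9 CPM in B10_insHEL islets. It had 45.2, 38.9 and 44.9 CPM in NOD islets, against 47.9, 51.1 and 58.1 CPM in B10 islets. Its averaged log2 fold change was −0.45 ± 0.096 (SE) (adjusted p = 0.00108), with no overlap within either pair. Tmed4 rose by 0.31 on the log2 scale (adjusted p = 0.00354), with 172, 159.7 and 172 CPM in NOD islets against 120.1, 129 and 129.7 CPM in B10 islets. It had 199, 165 and 159.6 CPM in NOD_insHEL islets, against 155, 137 and 162 CPM in B10_insHEL islets, and these overlapped.

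In the COPII coat 1 gene rose and 2 fell (25% of 12, against 33.3% of all genes in either direction). Sec13, of the outer cage and also a nuclear pore protein, had 144, 130.5 and 134 CPM in NOD_insHEL islets, against 116, 88.5 and 121 CPM in B10_insHEL islets. It had 118, 125 and 123 CPM in NOD islets, against 92.6, 84.3 and 80.3 CPM in B10 islets. Every NOD-background library was above the B10-background libraries of its own pair, and the averaged log2 fold change was 0.42 ± 0.082 (SE) (adjusted p = 0.0005). Sec23b fell by 0.34 on the log2 scale (adjusted p = 0.0352), with the values per library given above, and this call ended under 10 of the 20 alternatives. Sec16a fell by 0.28.

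**Figure D5:**
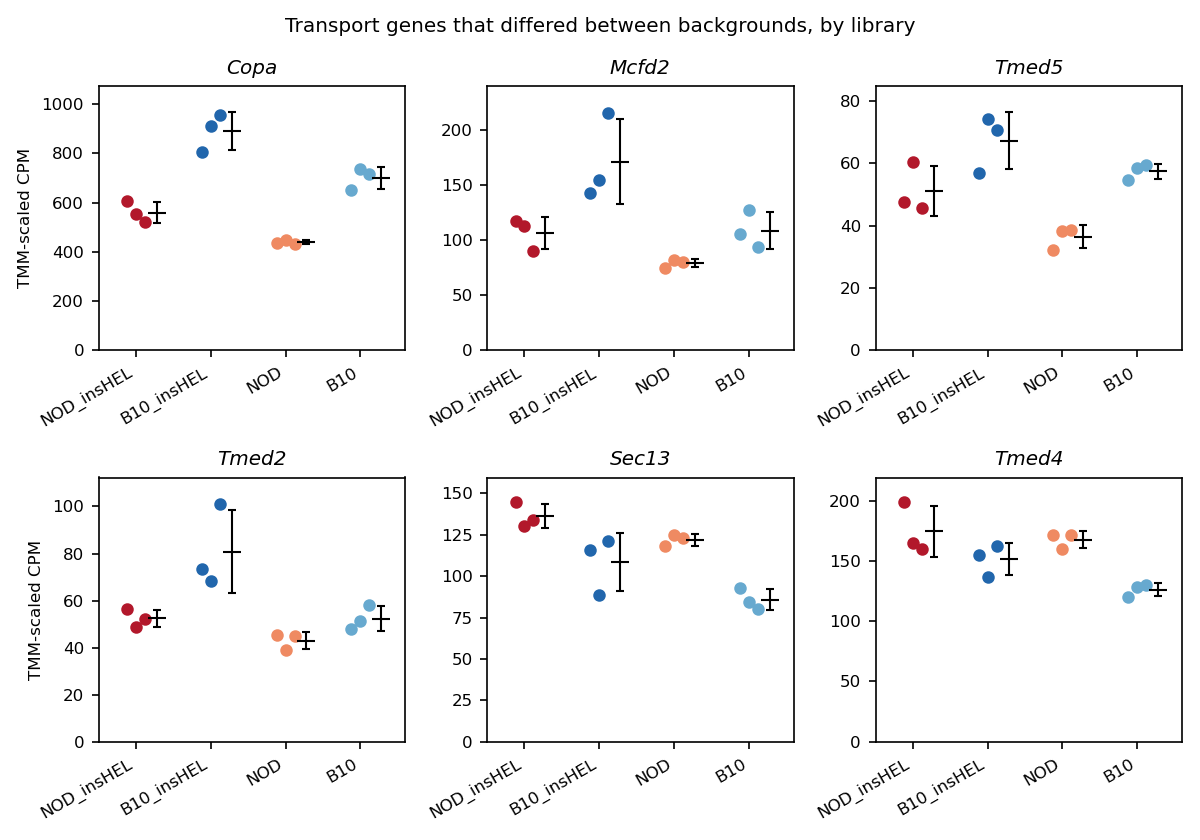
TMM-scaled CPM (y axis) of 6 genes in each library of the 4 groups (x axis), with mean ± SD over 3 libraries. Copa separates all NOD-background libraries (433 to 604 CPM) from all B10-background libraries (649.5 to 955 CPM).

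Acinar genes also differed between strains: 22 of 25 fell in the averaged comparison, and of 8 endothelial genes 6 rose and 1 fell. Of 4 delta cell genes 3 rose (median log2 fold change 0.79), of 7 stellate genes 3 rose (0.50), of 6 duct genes 2 rose (0.26), and of 10 beta cell genes 4 rose and 3 fell. Of 7 alpha cell genes 1 fell, and the 6 leukocyte genes tested had a median of 0.22 and did not pass. Summed endothelial genes were 936 to 1117 CPM in NOD_insHEL islets, against 1044 to 1115 CPM in B10_insHEL islets, and 1225 to 1730 CPM in NOD islets, against 894 to 979 CPM in B10 islets. The part of these cell types was not tested beyond the acinar score. With the acinar score as a covariate, 5 of the 42 genes passed in the averaged comparison and 1 between NOD and B10, all lower in the NOD background, while 16.4% and 9.14% of all genes passed. The 5 were Copa, Mcfd2, Tmed5, Tmed2 and Arf1, with Copa the 1 that passed between NOD and B10. The median log2 fold change of the 42 genes was −0.16 averaged and −0.19 between NOD and B10 with the covariate, against −0.14 and −0.095 without it. The acinar score was 2.31 to 3.00 in NOD and 6.04 to 6.42 in B10 libraries, so score and strain can hardly be told apart between these groups. Copa, Mcfd2, Tmed5 and Tmed2 passed the averaged comparison under all 20 alternatives, this covariate included. Sec13, Tmed4 and Lman1 lost their call under the covariate and kept it under the other 19. Single libraries moved the smaller comparisons: 7 genes passed between NOD_insHEL and B10_insHEL without B10_insHEL replicate 1 (12.6% of all genes did). Between NOD and B10, 6 passed without NOD replicate 3 (18.4% of all genes) and 7 without B10 replicate 3 (19.3%). Of the 73 related genes tested, 6 rose (8.22%, against 15.7% of all genes) and 21 fell (28.8%, against 17.6%) in the averaged comparison. Among them were Tmed6 (−0.81), Atf6 (−0.56) and Tmed1 (0.61) on the log2 scale.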

How the data were processed

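The submitters' processing notes name the build GRCm38 and the tools TopHat2 2.0.8b, cutadapt, HTSeq and DESeq. Which annotation, strand setting and counting mode were used is not given in the sources used here. The authors deposited raw read counts per Ensembl gene for 12 libraries, and all columns were used. Symbols and exon lengths came from GENCODE vM21 and promoters from RefSeq. Genes passing edgeR's filterByExpr (15352) were scaled by TMM and fitted in 1 model with the 4 group means, with robust quasi-likelihood dispersions (edgeR 4.0.16, R 4.3.3; common biological coefficient of variation 0.142). Tests are two-sided quasi-likelihood F-tests, adjusted by Benjamini-Hochberg over all genes tested. Comparisons were the transgene within each strain, the strain within each transgene state and averaged over it, and the interaction (the log2 fold change with the transgene in NOD less the same in B10). The SE was taken as the size of the log2 fold change over the root of F. Replicates of a group differed beyond sampling noise, so no library was counted as a copy. The 42 genes and all lists were chosen with earlier results of these data known. Values per library are given for the 8 genes with the largest passing log2 fold change in the averaged strain comparison and the 5 in each transgene comparison, plus families whose members differ in direction. Up to 3 related genes per comparison are named. The transcription factors and proteases at the end of the text, with the values per library of Atf6 and Xbp1, are given outside these rules. Alternatives were RLE scaling, no scaling factor, no low-count filter, DESeq2 1.42.0, the replicate number as a block, acinar score or islet number as a covariate, leaving out each library, and, chosen after seeing the data, leaving out B10_insHEL replicate 2 and NOD_insHEL replicate 3 together. Reads that pseudogene copies could share were not examined.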

Additional observations from a re-analysis of the deposited data

How the results depend on the processing

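Under 20 alternatives, the interaction passed for 0 of the 42 genes each time, and no log2 fold change that passed changed sign. With the acinar score as a covariate, 0 genes passed in the B10 transgene comparison, 5 in the averaged strain comparison and 1 between NOD and B10. Without a scaling factor, the median log2 fold change of all genes was −0.14 in the B10 and −0.10 in the NOD transgene comparison. In that fit 10 of the 42 rose in NOD, while 7.46% of all genes passed. In B10, 18 rose and 1 fell, while 10.4% of all genes passed. Leaving out 1 library at a time gave 2 to 19 genes for the transgene in NOD and 14 to 26 in B10. It gave 14 to 20 for the averaged strain comparison, 3 to 7 for NOD_insHEL against B10_insHEL and 6 to 13 for NOD against B10. Of all genes, 0.682% to 9.8%, 2.76% to 10.1%, 27.6% to 33.4%, 8.57% to 12.6% and 18.4% to 31.3% passed, in the same order. Without B10_insHEL replicate 2 and NOD_insHEL replicate 3, 21 genes rose in the NOD and 29 in the B10 transgene comparison. Of all genes, 12.6% and 11.3% passed there. In B10, transgene values that did not pass changed sign for Sec24a (−0.12 without a scaling factor, −0.00297 without the filter, −0.088 with the acinar covariate, −0.098 to 0.089 with a library left out), Sec23a (0.055 with the acinar covariate) and Sec24c (−0.15 to 0.042 with a library left out). The cause was not tested. Same-numbered libraries did not deviate together (correlations −0.095 to 0.080, 4 of 12 closest to their own number), so the numbers only name them. With the replicate block 15 genes rose in NOD and 24 in B10, while 6.26% and 6.72% of all genes passed. In that fit 17 of the 42 passed the averaged strain comparison, while 32.7% of all genes did. In the shallowest library Kdelr3 had 22 counts, and the part of depth in its low value was not tested.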

Other observations

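Among 8 tested transcription factors and proteases of the ER stress and Golgi stress responses, Mbtps2 rose with the transgene in NOD, and Atf6, Atf6b and Creb3 rose in B10. Atf6, a membrane-bound sensor cleaved in the Golgi, had 179, 181 and 178 CPM in NOD_insHEL islets, against 141, 130.5 and 153 CPM in NOD islets. It had 235, 327 and 302 CPM in B10_insHEL islets, against 154, 214 and 207 CPM in B10 islets. The groups did not overlap in either strain, and the log2 fold change passed in B10 (0.59, adjusted p = 0.00937) but not in NOD (0.34, adjusted p = 0.12). Xbp1, the factor activated by splicing, was singled out after its values were seen. It had 399, 367 and 423 CPM in NOD_insHEL islets, against 376, 361 and 381 CPM in NOD islets, and 368, 429 and 459 CPM in B10_insHEL islets, against 333, 367 and 343 CPM in B10 islets. Neither difference passed (adjusted p = 0.67 in NOD and 0.127 in B10), and gene counts do not show splicing.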
